A study of Drosophila melanogaster with 3 samples.

Results

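Intergenic peaks of the zinc-finger protein CG18764 were taken from the merged peak list of a chromatin immunoprecipitation and sequencing (ChIP-seq) study of Drosophila melanogaster embryos. A peak counted as intergenic when its summit, the position of highest signal, lay more than 500 bp from every annotated transcription start site (TSS) and outside every annotated gene body. This rule found 461 peaks beside 3293 others in the merged list, 12.3% of all its peaks (Wilson 95% interval 11.3 to 13.4%, counting error only). The other peaks were 1991 promoter, 1213 intronic and 89 exonic peaks. The study used 1 fly line with a transgene that adds GFP to the C terminus of CG18764, mixed-sex whole embryos aged 0 to 16 h, and an antibody against GFP. The 3 samples were biological replicates of this 1 group, so no condition was compared with another. No sample without the GFP fusion was analysed here, and whole embryos mix all cell types. The fusion protein was the only target measured, and the number of reads behind the peaks is unknown.

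CG18764 belongs to the ZAD zinc-finger proteins, an insect family of DNA-binding proteins that carry a zinc-finger-associated domain at one end and C2H2 zinc fingers at the other. Several members of the family bind gene starts or insulators, which are sequences that limit contact between enhancers and promoters. Sequence between fly genes holds enhancers, insulators and Polycomb response elements. Insulator proteins with known recognition sequences include CTCF, Su(Hw) and BEAF-32.

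The sequences at 8 of the 11 intergenic summits of highest deposited signal show how widely strong sites differed in base composition. Each run is centred on the summit, 5′ to 3′ on the plus strand of dm6, from the RefSeq copy of assembly release 6, and is named by its flanking genes. Capitals mark TGCATA (part of the sequence that Su(Hw) recognises), TATAAA (the TATA box) and AGNTGGCGC (a CTCF-type sequence), on either strand.
lncRNA:CR45641 and lncRNA:CR45643, chr3R:16222437-16222537: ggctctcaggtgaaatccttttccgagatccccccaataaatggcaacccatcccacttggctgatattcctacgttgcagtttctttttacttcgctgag
C15 and sp3, chr3R:21520328-21520428: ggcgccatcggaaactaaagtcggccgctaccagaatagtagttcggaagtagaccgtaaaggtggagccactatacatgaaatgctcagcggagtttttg
COX7AL2 and CG31668, chr2L:2202354-2202454: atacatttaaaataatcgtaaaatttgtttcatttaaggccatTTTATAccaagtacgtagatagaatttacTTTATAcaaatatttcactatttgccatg
CG43131 and RabGGTa, chr3R:5113232-5113332: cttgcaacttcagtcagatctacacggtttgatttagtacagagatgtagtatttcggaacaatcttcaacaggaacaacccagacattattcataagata
jp and lncRNA:CR44149, chr2L:9567464-9567564: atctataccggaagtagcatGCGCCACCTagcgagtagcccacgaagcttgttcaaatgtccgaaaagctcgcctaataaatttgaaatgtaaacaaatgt
lncRNA:CR45643 and tara, chr3R:16224436-16224536: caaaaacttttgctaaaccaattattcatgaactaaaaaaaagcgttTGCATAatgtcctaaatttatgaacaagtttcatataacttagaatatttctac
lncRNA:CR44603 and lncRNA:CR45695, chr2L:1638795-1638895: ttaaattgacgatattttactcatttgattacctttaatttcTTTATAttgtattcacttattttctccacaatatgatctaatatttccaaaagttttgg
RasGAP1 and CG10809, chr3L:9855906-9856006: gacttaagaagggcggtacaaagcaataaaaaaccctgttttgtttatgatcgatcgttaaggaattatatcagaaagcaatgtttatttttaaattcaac

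Their G+C content ran from 22.8% at the summit between lncRNA:CR44603 and lncRNA:CR45695 to 49.5% at the summit between C15 and sp3. The summit beside COX7AL2 held TATAAA at 2 positions, the summit beside tara held TGCATA, and the summit beside jp held the CTCF-type sequence. The summits beside lncRNA:CR45641, CG43131 and RasGAP1 and the one between C15 and sp3 held none of these sequences. The next set shows further summits that hold the consensus sequences called higher below, the highest ones among the arms printed here. The first pair hold TGCATA and the second pair TATAAA, with capitals as before.
CG43401 and CG43402, chr2L:1433849-1433949: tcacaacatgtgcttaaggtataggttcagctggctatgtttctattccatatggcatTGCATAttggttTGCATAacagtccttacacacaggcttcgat
Asator and zfh2, chr4:497863-497963: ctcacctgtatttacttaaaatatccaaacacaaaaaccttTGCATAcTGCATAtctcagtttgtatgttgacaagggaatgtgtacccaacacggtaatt
CG12643 and alpha-Man-Ia, chrX:10265833-10265933: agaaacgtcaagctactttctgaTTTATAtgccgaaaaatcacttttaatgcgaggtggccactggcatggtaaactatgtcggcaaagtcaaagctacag
lncRNA:CR45303 and lncRNA:CR45693, chr2L:14505162-14505262: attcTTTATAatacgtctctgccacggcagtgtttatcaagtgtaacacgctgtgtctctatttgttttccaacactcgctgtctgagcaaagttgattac

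Both TGCATA summits of this set held it at 2 positions. At the summit between Asator and zfh2 they stood close together. The last set shows summits with the CTCF-type sequence, a pattern chosen, and narrowed to its present letters, after the values and sequences of these peaks were seen.
soti and cv-c, chr3R:14391374-14391474: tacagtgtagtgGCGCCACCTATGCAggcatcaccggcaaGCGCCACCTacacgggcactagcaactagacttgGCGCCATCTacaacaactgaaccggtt
Cad89D and Gr89a, chr3R:16497515-16497615: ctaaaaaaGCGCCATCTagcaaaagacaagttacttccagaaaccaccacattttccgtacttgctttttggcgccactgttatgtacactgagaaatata

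The summit beside cv-c held this sequence at 3 positions, the first of them overlapping a TGCATA, and had a G+C content of 56.4%.

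Each of the 25 intergenic peaks of highest signal had a peak in the full lists of all 3 replicates, which include background. So did 414 of all 461 members. The merged list was built from these replicates, so this follows in part from its construction. The highest of the 25, at 2R:13035331, lay 9364 bp beyond the end of CG13323 and, on its other side, 27420 bp beyond the end of Su(z)2, a gene of the Polycomb group, whose products keep developmental genes silent. It ranked 38, 32 and 31 by deposited signal in replicates 1, 2 and 3, a mean rank of 33.7 ± 3.8 (SD, n = 3). A peak at 2R:12958200 lay 2488 bp beyond the end of CG13321 and 7797 bp beyond the end of Psc, the neighbouring paralogue of Su(z)2. It ranked 140, 122 and 155 in replicates 1, 2 and 3. A second peak in the gap beside Psc, at 2R:12959472, ranked 345, 546 and 346. The peak between ph-d and ph-p, paralogous Polycomb group genes on X, lay 779 bp from the start of ph-d and ranked 274, 361 and 330. A weaker member 203 bp from it had no summit within 100 bp in replicate 1 and ranked 1315 and 4839 in the others.

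Several peaks of this set lay beside well-studied genes. The peak between lncRNA:CR45641 and lncRNA:CR45643 ranked 45, 49 and 28 in replicates 1, 2 and 3. A peak in the next gap lay 1165 bp from the start of tara, a gene of the trithorax group that counteracts Polycomb silencing, and ranked 191, 160 and 171. The peak between C15, a homeobox gene of leg development, and sp3 ranked 49, 71 and 69. The peak 557 bp beyond the end of CycB, which encodes cyclin B, ranked 86, 108 and 53. The peak between the paired forkhead genes slp1 and slp2, which act in segmentation, ranked 236, 181 and 163. These ranks differed little between replicates beside the length of the lists.

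Some members differed more between replicates. The peak beside jp, which encodes junctophilin, ranked 511 in replicate 1 against 119 and 133 in replicates 2 and 3. The peak between the kinase gene Asator and the zinc-finger gene zfh2 on chromosome 4 ranked 989 against 187 and 217. The peak between lncRNA:CR44603 and lncRNA:CR45695 was lower in replicate 3, at rank 415 against 160 and 197. The peak in the gap of foxo, an effector of insulin signalling, ranked 509, 339 and 252. The peak 1233 bp from the start of stck, an adaptor of integrin adhesion, in the gap shared with the autophagy gene Atg13, ranked 442, 269 and 260. The others of the 25 included peaks beside RasGAP1, the sugar transporter gene Glut3, the cytochrome P450 gene Cyp9f2 and RabGGTa. Other flanking genes of this set were COX7AL2, CG31668, blw, CG43131, CG13321, CG13323, CG10809, Sol1, NijA, CG43245, CG17896, CG17778, CG3149, CG10479, CG43401, CG43402, CG33453 and several noncoding genes.

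**Figure D1:**
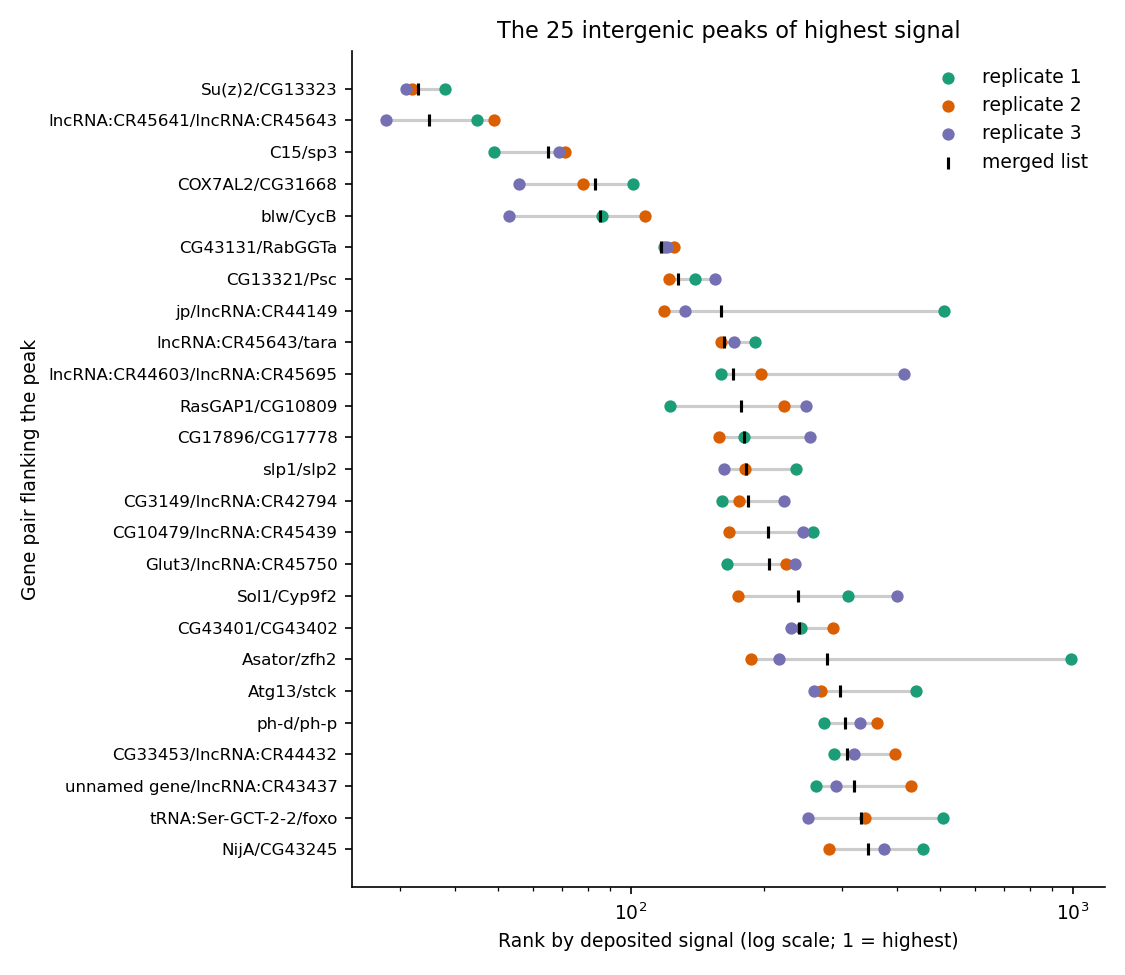
Rank by deposited signal (x axis, log scale, 1 is the highest) of the 25 intergenic peaks of highest signal, named by their flanking genes (y axis), in replicates 1 to 3 (coloured points) and the merged list (black ticks); grey lines join the lowest and highest replicate. Most points of a peak lie close together, and the widest spread is between Asator and zfh2, from rank 187 to 989.

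Intergenic peaks were weaker than promoter peaks by their median rank. Their ranks in the merged list ran from 33 to 3749 with a median of 2135, against a median of 1659 for promoter peaks, 2056 for intronic peaks and 2177 for exonic peaks. None of the 25 highest and 5 of the 100 highest peaks of the merged list were intergenic. The weakest 1 in 3 of the merged ranks held 182 of 461 members (39.5%) and 1070 of the 3293 other peaks (32.5%), an odds ratio of 1.36 (Fisher's exact test, adjusted p = 0.031). It was the only one of 10 such comparisons called, 10% of them. Of intronic peaks 36.8% lay there (Fisher's exact adjusted p = 0.32). The difference from all other peaks was 6.99 percentage points, and 7.59, 11.0 and 7.75 without replicate 1, 2 or 3 (Fisher's exact adjusted p = 0.063, 0.0026 and 0.086). Leaving a replicate out kept the peaks found in the remaining replicates, ordered by their ranks in the list merged from all 3. The weakest 1 in 3 was then set anew among the peaks kept, as it was among the 1877 highest merged peaks. Among the 1877 highest merged peaks the difference was 7.42 (Fisher's exact adjusted p = 0.15). The units of these comparisons are peaks of 1 merged list, so the p-values say nothing of how embryo collections vary.

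The share of intergenic peaks was lowest at the top of every list. It was 8.8% in the 500 highest merged peaks and 16.6% in those ranked 3001 to 3500. In the relaxed lists, which hold 30000 peaks for each replicate and include background, the share was 12.5%, 11.1% and 11.4% in the 3000 highest peaks of replicates 1, 2 and 3. It rose to 22.8%, 14.2% and 13.2% in the next 3000 and to 27.7%, 21.6% and 19.1% in the last 3000. Replicate 1 lay above the others in each of these bins. Among each replicate's highest peaks, as many as the merged list holds, 518, 432 and 438 were intergenic in replicates 1, 2 and 3, a mean of 12.3% ± 1.3 (SD, n = 3). Of these, 35.9% in replicate 1 had no summit within 100 bp among as many highest peaks of either other replicate. This was so for 22.0% in replicate 2 and 19.2% in replicate 3. The full lists were not searched for this.

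**Figure D2:**
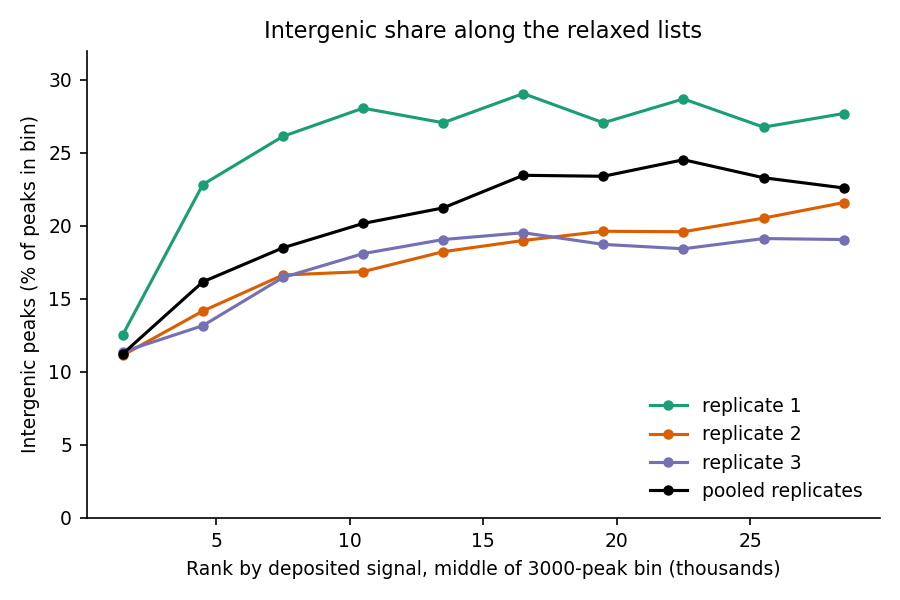
Intergenic share (y axis, percent of the peaks in a bin) along the relaxed lists in bins of 3000 peaks from the highest signal down (x axis, rank at the middle of the bin), for replicates 1 to 3 (colours) and the pooled replicates (black). Each line is lowest in its first bin, and replicate 1 lies above the other lines throughout.

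Most members were found again in each replicate. A peak with its summit within 100 bp was among this many highest peaks for 73.5%, 80.9% and 77.9% of members in replicates 1, 2 and 3, a mean of 77.4% ± 3.7 (SD, n = 3). The merged list was built from the same replicates, so recovery follows in part from its construction. Promoter peaks were recovered at 80.6% ± 3.9 and intronic peaks at 79.5% ± 6.1. Intergenic recovery was lower than promoter recovery in 3 of 3 replicates, with a mean difference of -3.19 percentage points ± 0.66 (SD). The two-sided exact permutation p was 0.25, the smallest that 3 pairs allow. All 3 replicates held 242 members (52.5%), against 57.4% of the other peaks (Fisher's exact adjusted p = 0.17). The remaining members were found in 2 replicates (131), in 1 (83) or in none (5). Over the full relaxed lists, every member had a peak in at least 1 replicate, and 414 had one in all 3.

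Some of the stronger members had no summit within 100 bp in one replicate's whole list. Among the 195 members in the 1877 highest merged peaks this was so for 8 in replicate 1, 1 in replicate 2 and 5 in replicate 3. In 13 of these 14 cases a summit of that replicate lay at most 191 bp away, past the 100 bp that counted as shared. The member beside chinmo, which ranked 734 and 869 in replicates 2 and 3, had a replicate 1 summit of rank 1303 at 191 bp. The member 588 bp from the start of Cdk4, a cell cycle kinase gene, ranked 1206 and 1980 in replicates 2 and 3 and had a replicate 1 summit of rank 1996 at 104 bp. Another merged summit lay 201 bp from the member beside chinmo and from the one beside Cdk4. Which merged peak those replicate 1 summits belong to was not tested. In other cases the nearest merged summit was farther, as between soti and cv-c (8693 bp). The exception among the 14 cases lay between Tmc and LanB2, which encodes a laminin subunit. It ranked 1494 and 1813 in replicates 1 and 3, and the nearest summit of replicate 2 was 1077 bp away. These distances and examples were looked at after the values were seen.

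Members lay from 505 to 36762 bp from the nearest TSS, with a median of 2584 bp and quartiles of 1233 and 5815 bp. Between 500 and 1000 bp lay 90 members, and 54 lay more than 10000 bp away. The closer of the flanking gene boundaries was a gene start for 235 members and a gene end for 226. A gene end lay within 500 bp of 62 members. The 2 members just inside the 500 bp limit lay 505 bp from a TSS of Npc2b and 506 bp from one of lncRNA:CR43648, and ranked 3121 and 3322. The peaks just outside lay 498 bp from a TSS of Atpalpha and 492 bp from one of CycD, and ranked 3461 and 857. These values describe where the rule divides the list.

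Members were fewer per base than promoter and intronic peaks and more than exonic peaks, and were densest in short gaps. Intergenic sequence as defined here spanned 38.6 Mb, 28.2% of assembled bases, and held 11.9 peaks per Mb, against 22.6 per Mb in introns, 3.35 per Mb in exons and 109 per Mb within 500 bp of a TSS. The 38.6 Mb include 2.34 Mb on Y, where the merged list held no peak of any class. The 461 members lay in 344 of 6601 gaps between genes (5.21%). The median gap with a member was 8183 bp long and the median of all gaps was 1681 bp. Per Mb of intergenic sequence, gaps under 2 kb held 34.5 members, gaps of 2 to 10 kb 21.5, gaps of 10 to 30 kb 13.6, and longer gaps 3.39. Gaps between divergent genes, whose starts face each other, held 17.2 members per Mb, tandem gaps 11.8 and convergent gaps 9.85. These densities were not tested.

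Some gaps held several peaks. A single member was found in 264 gaps, 2 in 60 gaps, and 3 or more in 20 gaps that together held 77 members. The gap between NijA, which encodes the membrane protein Ninjurin A, and CG43245 on 3L held 9 members over 75047 bp. Their merged ranks ran from 345 to 3483, and the highest of them ranked 459, 281 and 375 in replicates 1, 2 and 3. The gap between lncRNA:CR44363 and CG7560 held 6 members over 19063 bp, 3 of them with merged ranks of 395, 498 and 663. The gap after scyl held 5, and scyl encodes an inhibitor of TOR signalling. Its paralogue chrb, in the same region of 3L, had 1 member in the gap beside it.

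Other crowded gaps flanked genes of varied function. The gap between the divergent genes Wnt4 and wg, which encode Wnt ligands, held 4 members over 29987 bp with a highest merged rank of 1834. The adjacent gaps lncRNA:CR44603 to lncRNA:CR45695 and lncRNA:CR45695 to chinmo held 4 and 3 members, and chinmo encodes a BTB zinc-finger protein of neuronal temporal identity. The gap between Hacd1 and the rhodopsin gene Rh5 held 4 members over 5886 bp. The gap of COX7AL2 and CG31668 held 3 over 5808 bp. The gap of tRNA:Ile-TAT-1-2 and CG13898 held 6 over 32964 bp, with merged ranks from 932 to 3291. Windows of 100 kb that held the most members were 3L:10700001-10800000 with 11, 2L:14500001-14600000 with 10 and 3L:11400001-11500000 with 10. These windows held 1, 0 and 1 other peaks. Intergenic sequence made up 92.6, 80.4 and 73.5 kb of them, so little sequence was left where a peak of another class could lie. Summits of 26 members lay within 400 bp of another member, where some but not all of the intervals overlap, and 448 loci remained after merging these.

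Another peak of the merged list lay within 5000 bp of 215 members (46.6%), against 49.7% of other peaks (Fisher's exact adjusted p = 0.32) and 53.2% of intronic peaks (Fisher's exact adjusted p = 0.093). The difference from intronic peaks was -6.54 percentage points, -9.00 and called without replicate 2 (Fisher's exact adjusted p = 0.030), and -2.75 and not called with a distance of 2000 bp (Fisher's exact adjusted p = 0.36). For 239 members the nearest other peak was itself intergenic, at a median distance of 3557 bp. A summit on a lower-case base, the reference's mark of repeats, was found in 19.7% of members and 23.5% of other peaks (Fisher's exact adjusted p = 0.19). This difference of -3.76 percentage points was -9.44 and called among the 1877 highest merged peaks (Fisher's exact adjusted p = 0.030). It was -8.23 and called without replicate 2 (Fisher's exact adjusted p = 0.0066), and -5.85 and -6.14, not called, without replicate 1 or 3. An annotated transposable element held the summit of 3 members and of 8 other peaks (Fisher's exact adjusted p = 0.24).

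Intergenic peaks were unevenly spread over the chromosome arms. Arms 3L and 2L held 147 and 118 members, 31.9% and 25.6%, against 19.8% and 17.6% of the other peaks (odds ratios 1.90 and 1.61, Fisher's exact adjusted p = 7.5e-08 and 2.1e-04). Arms 3R, 2R and X held 82, 58 and 51 members and lower shares than other peaks (odds ratios 0.63, 0.63 and 0.57, Fisher's exact adjusted p = 4.0e-04, 0.0014 and 2.5e-04). Chromosome 4 held 5 members (odds ratio 2.57, Fisher's exact adjusted p = 0.074), and Y held none. This comparison of 6 arms was chosen after seeing the data. Per Mb of intergenic sequence the members numbered 16.4 on 3L, 17.6 on 2L, 10.7 on 3R, 7.79 on 2R and 9.72 on X. Promoter peaks ran from 99.4 to 120 per Mb on these arms.

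The same uneven spread was present in each replicate's own peaks. Arms 2L and 3L together held 57.5%, 55.3% and 57.3% of the intergenic peaks among the highest of replicates 1, 2 and 3. This was above the share of their other peaks by 19.7, 17.3 and 19.6 percentage points, a mean difference of 18.9 ± 1.3 (SD, n = 3). With the 20 gaps of 3 or more members left out, 50.5% of the remaining 384 members lay on 2L and 3L, against 57.5% of all members and 37.4% of other merged peaks.

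**Figure D3:**
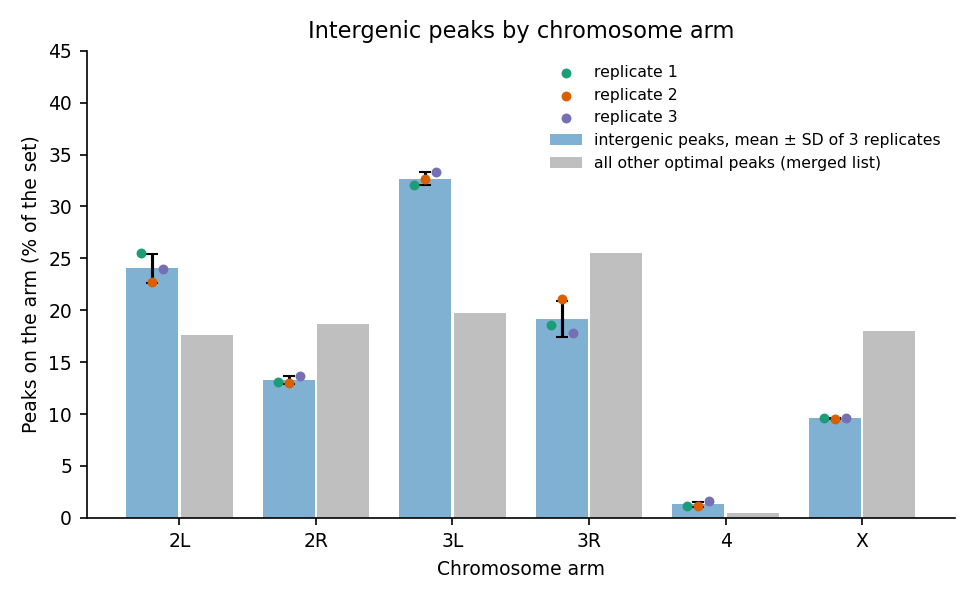
Percent of peaks on each chromosome arm (x axis). Blue bars give the mean ± SD over 3 replicates of the intergenic peaks among each replicate's highest, points give each replicate, and grey bars give all other peaks of the merged list. On 2L and 3L every replicate lies above the grey bar, and on 2R, 3R and X every replicate lies below it.

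In all, 655 of 18277 annotated genes (3.58%) bordered a gap position with a member, or 6.96% of the 9417 genes that border intergenic sequence at all. The shares below are set beside these values, with no test. They were not matched for gap length, and long gaps held a member more often. Of gaps under 2 kb, 50 of 3578 held a member, against 120 of 808 gaps of 10 to 30 kb. A member between listed genes counts for both of them, as with ph-d and ph-p, and wg is on more than 1 list. Of 20 Polycomb and trithorax genes 4 did so, namely Psc, Su(z)2, ph-d and ph-p, all of the Polycomb group. The trithorax group gene tara, described above, is not on this list. That count is 20.0% of the list and 36.4% of its 11 members that border such sequence. None of the 8 Hox genes did so.

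Segmentation genes numbered 7 of 26 (26.9%), namely ems, kni, oc, odd, slp1, slp2 and wg. The 2 members beside the head gap gene ems lay 10296 and 11228 bp beyond its end, with merged ranks of 1717 and 1881. The first ranked 1694, 1639 and 2131 in replicates 1, 2 and 3. The 2 members beside the trunk gap gene kni lay 16235 and 15311 bp before its start, with merged ranks of 2036 and 3579. The one of rank 2036 lay 1225 bp beyond the end of cmpy, the gene on the other side. Apart from slp1 and slp2, the members of this list had no merged rank above 1717.

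Signalling ligands and receptors numbered 10 of 37 (27.0%). The FGF ligand genes pyr and ths share a gap that held 2 members, with merged ranks of 1622 and 2640. A member 5288 bp before ptc, the Hedgehog receptor gene, ranked 774, 754 and 1088 in replicates 1, 2 and 3. A member 1734 bp before fz, a Wnt receptor gene, ranked 1089, 802 and 1325. One 2501 bp before robo2, an axon guidance receptor gene, ranked 463, 619 and 906. A member 24177 bp before vn, an EGF receptor ligand gene, and 1660 bp before CG5568 on its other side ranked 633, 1875 and 1460. The others were Wnt4, wg and the JAK/STAT ligand genes upd1 and upd2.

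Appendage and eye patterning genes numbered 8 of 26 (30.8%), namely B-H2, C15, Doc1, Doc2, dac, ey, mid and toy. The T-box gene Doc2 had 3 members in its flanking gaps, with merged ranks of 1199, 1296 and 1695. The Pax6 genes toy and ey on chromosome 4 had 1 each, ranking 974, 1126 and 1779 at toy and 2570, 4657 and 1759 at ey. Cell cycle genes numbered 4 of 20 (CycB, Cdk4, stg and rux), and trachea and epidermis genes 4 of 19 (Ddc, ple, shg and vvl). The member 4168 bp beyond ple, which encodes tyrosine hydroxylase, and 188 bp beyond the end of CG8519 ranked 396, 319 and 781.

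Shares of the other lists ranged more widely. Cytosolic ribosomal protein genes numbered 4 of 88 (4.55%), cuticle protein genes 3 of 124 (2.42%), odorant, gustatory and ionotropic receptor genes 4 of 186 (2.15%) and tRNA genes 10 of 295 (3.39%). The adhesion genes of the dpr, DIP and beat families numbered 5 of 54 (9.26%), nervous system genes 3 of 31 (D, SoxN and nerfin-1), and gut, fat body and blood genes 2 of 16 (exex and fkh). Mesoderm and muscle genes numbered 2 of 30 (Act57B and bin), insulator and architectural genes 1 of 16 (mod(mdg4)), microRNA genes 1 of 260 (mir-4981) and ecdysone response genes 0 of 14. Of the genes that border intergenic sequence, these shares were 8.89% for ribosomal protein, 2.78% for cuticle protein, 3.48% for receptor and 11.9% for tRNA genes, beside 6.96% of all genes. They were 10% for adhesion, 13.6% for nervous system, 14.3% for gut, fat body and blood, 7.41% for mesoderm and muscle, 16.7% for insulator and 4.17% for microRNA genes. Long noncoding RNA genes numbered 161 of 1945 (8.28%), or 12.4% of the 1301 that border intergenic sequence. A gene on one side of a gap need not be the one that a site there acts on.

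Summits of intergenic peaks were rich in A and T. In the central 100 bp the mean G+C content was 34.5% ± 8.51 (SD over peaks), and it was 43.6% ± 10.02 in a flank of the same width whose centre lay 300 bp from the summit, on alternating sides. It was lower at the centre in 332 members and higher in 119. In the intergenic peaks of each replicate's own list, the centre differed from the flank by -7.12, -9.36 and -7.59 percentage points in replicates 1, 2 and 3. The centres of intronic peaks (32.5% ± 7.59) and promoter peaks (34.2% ± 9.54) had a G+C content close to this beside the spread over peaks. At 500 bp upstream on the plus strand the mean was 42.0% for intergenic, 41.9% for intronic and 45.9% for promoter peaks. Around intergenic summits it was 44.9% at -250 bp, 43.4% at -300 bp and 43.8% at 300 bp. Farther out it was 40.4% at -600 bp and 40.1% at 600 bp, and 42.2% at -1000 bp and 41.1% at 1000 bp. The flanks thus lay where G+C content was higher than at these farther distances, and the size of the difference depends on their position.

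**Figure D4:**
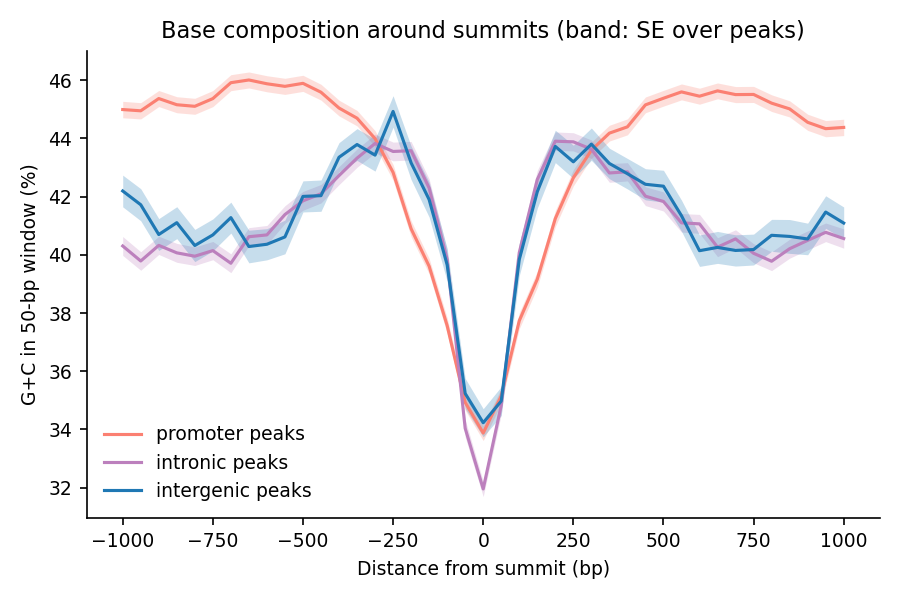
Mean G+C content (y axis, percent in 50 bp windows) by distance from the summit along the plus strand (x axis, bp) for promoter, intronic and intergenic peaks; bands are the standard error over peaks. All 3 classes dip around the summit, and at -500 bp promoter peaks (45.9%) lie above intergenic peaks (42.0%).

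Short words followed this composition. Of all 6-mers, each merged with its reverse complement, 106 (5.1%) were higher at summits than in flanks and 117 (5.62%) lower, at an adjusted p under 0.05 in the exact McNemar test. Among the 106, 105 held 4 or more A or T bases, and 1 of the 117 did. ATATTG was in 68 centres and 15 flanks, and ATATAA in 88 and 26 (exact McNemar test, adjusted p = 1.1e-06 for each). ACTTTA was in 71 centres and 21 flanks (exact McNemar test, adjusted p = 1.8e-05). The other words among the 10 of lowest p were AATATT with 91 centres and 32 flanks, AAATAT with 149 and 74, AATATA with 96 and 37, TTAAAA with 133 and 66, ATTATA with 69 and 23, ATTGTA with 60 and 19, and TATAAA with 90 and 41.

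Words lower at summits were rich in G and C. CCCCTC was in 4 centres and 30 flanks (exact McNemar test, adjusted p = 0.0013). The next were CCACCC with 4 centres and 29 flanks, CCGCCC with 6 and 33, CCAGCC with 4 and 28, AGGGGG with 5 and 30, GGGGGA with 8 and 35, CACGCC with 3 and 24, CCTCCC with 5 and 27, CCTGCG with 2 and 21, and ACTCCA with 5 and 28. The number of such words depended on the members used. In the 195 members among the 1877 highest merged peaks, 3 words were higher and 0 lower by the exact McNemar test. With replicate 1, 2 or 3 left out, 28, 27 and 41 words were higher and 20, 20 and 42 lower. Which words were called also depended on the side of each flank: with the sides exchanged 105 were higher, of which 72 were among the 106.

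Of 25 consensus sequences of known fly factors, searched on both strands, 2 (8%) were higher at intergenic summits than in flanks and 2 (8%) lower. TGCATA, as printed for the summits beside tara and zfh2, was in 60 centres (13.0%) and 25 flanks (5.42%; exact McNemar test, adjusted p = 0.0016). It was in 6.78% of all 379890 windows of 100 bp that tile intergenic sequence. Intronic peaks held it in 9.89% of centres and 6.43% of flanks, and promoter peaks in 8.14% and 5.22%, with no test. A higher share in centres than in flanks was thus not particular to intergenic peaks. In each replicate's own intergenic peaks it was in 12.9%, 12.3% and 11.2% of centres and in 5.41%, 7.18% and 5.25% of flanks. The excess over flanks was 7.59 percentage points in all members and 7.28 to 9.68 with a replicate left out, each called. In the 195 members among the 1877 highest merged peaks it was 6.67 and was not called (exact McNemar test, adjusted p = 0.44).

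TATAAA, the TATA box, overlaps the A+T-rich words above. It was in 90 centres (19.5%) and 41 flanks (8.89%; exact McNemar test, adjusted p = 1.7e-04), and in 12.4% of intergenic windows. Of the 90, 26 lay among the 1877 highest merged peaks, where the excess over flanks was 2.05 percentage points against 10.6 in all members and was not called (exact McNemar test, adjusted p = 1). Without replicate 1, 2 or 3 the excess was 4.30, 7.17 and 7.61 percentage points and was not called (exact McNemar test, adjusted p = 0.74, 0.17 and 0.15). The excess was not particular to intergenic peaks. TATAAA was in 22.2% of intronic centres and 8.90% of intronic flanks, and in 22.1% of promoter centres and 10.8% of promoter flanks. The intergenic centre share was not called different from the intronic or promoter one (Fisher's exact adjusted p = 0.69 and 0.50).

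The 2 sequences called lower were close to the threshold. CACACACA, a CA repeat, was in 4 centres and 16 flanks, and GAGAG, bound by the GAGA factor, in 48 and 77 (exact McNemar test, adjusted p = 0.047 for each). Of all intergenic windows 11.1% held GAGAG, near its 10.4% of centres and below its 16.7% of flanks. CACACACA was in 1.92% of these windows, between its 0.868% of centres and 3.47% of flanks. Intronic centres and flanks held GAGAG at 11.4% and 18.0%, and promoter centres and flanks at 7.63% and 14.2%. The GAGAG call rested on where the flanks lay. Its difference was -6.29 percentage points as designed, -4.77 with sides set by the parity of the rank and -2.60 with the sides exchanged (exact McNemar test, adjusted p = 0.21 and 0.91 for the last 2). It was called under none of the alternatives run. The CA repeat kept its call under both of these side settings, but lost it under 4 other settings. These were without replicate 3, at -2.17 percentage points, with 1 peak per locus, at -2.23, with the flank 500 bp away, at -1.95, and among the 1877 highest merged peaks, at -3.08 (exact McNemar test, adjusted p = 0.55, 0.22, 0.19 and 0.44). The Zelda site CAGGTAG was in 4 centres and 3 flanks, and the Pho core GCCAT in 68 and 87, and neither was called (exact McNemar test, adjusted p = 1 and 0.47).

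Intergenic summits differed from promoter summits in sequences known from housekeeping promoters. The DRE, TATCGATA, was in 0.651% of intergenic centres and 3.92% of promoter centres (odds ratio 0.16; Fisher's exact test, adjusted p = 9.0e-04). Its core CGATA, bound by BEAF-32 and contained in the DRE, was in 10.8% and 23.9% (odds ratio 0.39; Fisher's exact test, adjusted p = 2.3e-09). CGATA was in 8.46% of intergenic flanks and 10.6% of all intergenic windows, so its share at intergenic summits was near both. TGCATA was higher than at promoter summits, in 13.0% and 8.14% (odds ratio 1.69; Fisher's exact test, adjusted p = 0.013). Thus 2 of 25 (8%) were lower and 1 (4%) higher.

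Each replicate's own peaks showed the same directions. CGATA was in 12.4% ± 0.21 of intergenic and 22.7% ± 0.29 of promoter centres (SD, n = 3). TGCATA was in 12.1% ± 0.88 of intergenic centres (SD, n = 3) and in 8.44%, 7.81% and 7.75% of promoter centres of replicates 1, 2 and 3. In the merged list the TGCATA difference was not called without replicate 1 or 3, at 4.11 and 4.60 percentage points (Fisher's exact test, adjusted p = 0.14 and 0.12). The DRE difference was not called without replicate 3, at -2.59 percentage points (Fisher's exact test, adjusted p = 0.12). None of the 3 was called among the 1877 highest merged peaks (Fisher's exact test, adjusted p = 0.052 for the DRE, 0.088 for CGATA and 0.17 for TGCATA).

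Fewer sequences separated intergenic from intronic summits. Of 25, 1 (4%) was lower and 0 (0%) higher than at intronic summits by Fisher's exact test, and at an unadjusted p under 0.05 the CTCF core AGGNGGC was higher, in 3.69% and 1.65% (Fisher's exact test, adjusted p = 0.19). The A tract AAAAAAA was in 8.46% of intergenic and 15.4% of intronic centres (odds ratio 0.51; Fisher's exact test, adjusted p = 0.0039), and in 8.94% of intergenic windows. Among the 1877 highest merged peaks the difference was -6.28 percentage points and was not called (Fisher's exact test, adjusted p = 0.25). In each replicate's own peaks it was in 9.93% ± 0.49 of intergenic and 14.9% ± 0.15 of intronic centres (SD, n = 3). TGCATA was in 13.0% and 9.89% (Fisher's exact test, adjusted p = 0.64).

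The CTCF core on the list, AGGNGGC, was in 17 intergenic centres and 26 flanks and was not called (exact McNemar test, adjusted p = 0.50). The CTCF-type sequence AGNTGGCGC and a longer Su(Hw)-type sequence, TGCATANTT, were chosen after the values of these peaks were seen and are described without a test. AGNTGGCGC was in 17 intergenic centres (3.69%) and 1 flank, in 1.48% of intronic centres and 1.26% of promoter centres, and in 0.219% of intergenic windows. In each replicate's own intergenic peaks it was in 3.86%, 3.01% and 3.42% of centres and 0.386%, 0.231% and 0.228% of flanks. Of the 17, 14 were found among the highest peaks of all 3 replicates, as were 242 of all 461 members (52.5%). Among the 1877 highest merged peaks were 10 of the 17 and 195 of all 461 members. The 17 lay beside jp, cv-c, Gr89a, snu, Sox21b and the homeobox gene otp, among others. TGCATANTT was in 11 centres (2.39%) and 4 flanks (0.868%), and in 1.15% of intergenic windows. A match of letters is not a bound site, and binding of CTCF or Su(Hw) was not measured.

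**Figure D5:**
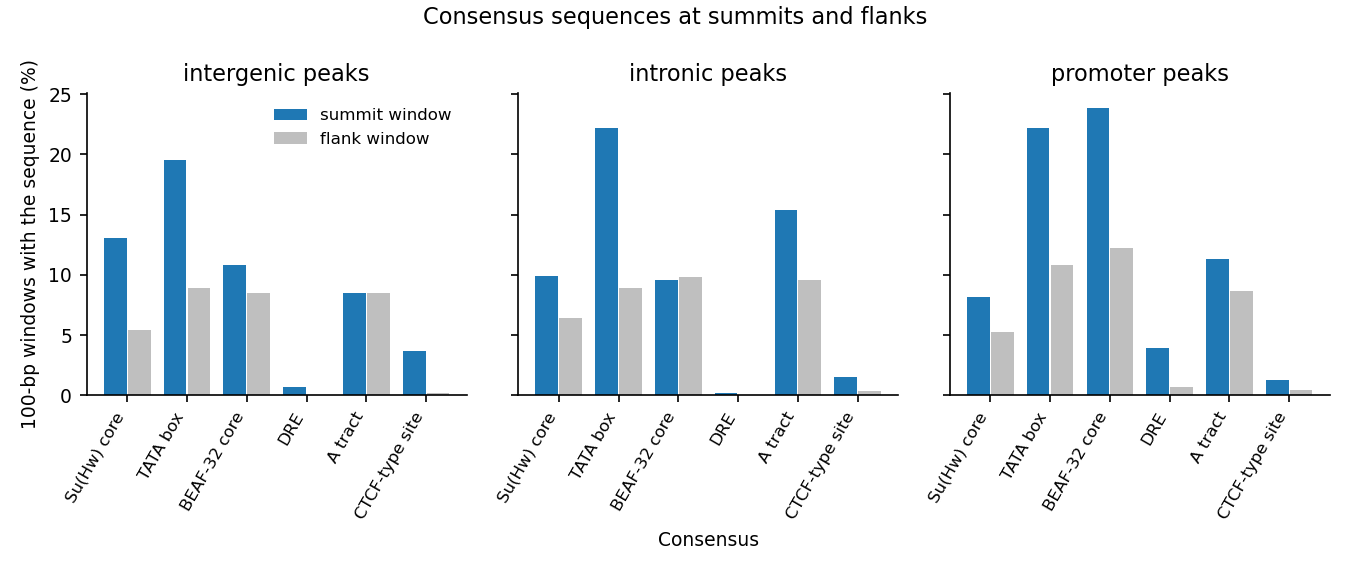
Percent of 100 bp windows (y axis) that hold each consensus sequence (x axis) at summits (blue) and in flanks (grey), for intergenic, intronic and promoter peaks of the merged list. The BEAF-32 core is at 23.9% of promoter and 10.8% of intergenic summits, and the CTCF-type site, chosen after the values were seen, is at 3.69% of intergenic summits.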

How the data were processed

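ChIP-seq peaks of GFP-tagged CG18764 from 3 biological replicates were analysed on dm6. The authors deposited narrowPeak lists: a relaxed list of 30000 peaks (peaks and background) per replicate, a relaxed list of the pooled replicates, and a merged optimal list after the irreproducible discovery rate procedure, as the labels and file listing describe them. The aligner, caller and cut-offs were not given in the sources used here, and depth is unknown. The deposited signal value is a score of unstated scale, used only to rank peaks within a list. The deposited summit offset in bp gave each summit. The deposited −log10 q value and the dm3 lists were not used. Sonication to 200 to 800 bp, per the labels, limits how finely a summit places a site.

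Coordinates are 1-based. Gene models came from Ensembl release 115 (18277 genes, 23694 TSS positions on the main arms, with 5889 transposable elements left out as genes). Sequence came from RefSeq assembly release 6. A summit within 500 bp of a TSS was a promoter peak; others were exonic, intronic or intergenic. A gap is the stretch between neighbouring gene bodies. The members, the 19 gene lists and the 25 consensus sequences were chosen with earlier results of these data known. Genes named are those flanking the 25 highest members, those flanking crowded gaps, and listed genes. Summits within 100 bp were counted as shared, within as many of each replicate's highest peaks as the merged list holds. Tests were two-sided: Fisher's exact test between peak classes and the exact McNemar test between centre and flank, with flanks on sides alternating along the members by rank, each with Benjamini-Hochberg adjustment within its family. All treat peaks as units. Methods were tested on simulated data in which centres and flanks were drawn with the same base composition. Real centres and flanks differed in G+C content, and calls under such a difference were not simulated. Alternatives were a stricter list (the 1877 highest peaks), a TSS distance of 1000 bp, each replicate left out (keeping members found in the remaining replicates), and other windows and flanks. With a replicate left out, summits and ranks were still those of the list merged from all 3, so these results are not independent of that replicate. Added after seeing the data were exchanged flank sides, sides set by the parity of the rank, 1 peak per locus, the comparison of arms and 2 further consensus sequences. After first results had been seen, parity of the rank was for a time used as the side rule; the values given here are from the designed alternation, and the report and the section on processing give both where a call differs. Software was Python 3.11.15, with the packages scipy 1.17.1, numpy 2.4.6, matplotlib 3.10.9 and pandas 2.3.3.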

Additional observations from a re-analysis of the deposited data

How the results depend on the processing

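The intergenic share was 10.4% in the stricter list and 9.88% with a TSS distance of 1000 bp. Mean recovery was 85.5% in the stricter list, 68.8% with summits within 50 bp and 96.4% in whole relaxed lists. The number of shares called was 0 to 3 with a replicate left out. The 6-mers higher at summits numbered 3 in the stricter list, 187 with windows of 200 bp, 43 with the flank 500 bp away and 27 to 41 with a replicate left out. Those lower numbered 0, 193, 32 and 20 to 42 under the same settings. Consensus sequences higher at summits numbered 0 in the stricter list and 1 to 1 with a replicate left out. Those lower, 2 as designed, numbered 0 in the stricter list, 1 with a TSS distance of 1000 bp, 0 with the flank 500 bp away, 1 with the flank sides exchanged, 1 with sides by the parity of the rank, 0 with 1 peak per locus and 0 to 1 with a replicate left out. Consensus sequences called against promoter peaks numbered 1 in the stricter list and 1 to 3 with a replicate left out, and against intronic peaks 0 in the stricter list. The G+C difference, centre minus flank, was -10.5 percentage points with a TSS distance of 1000 bp, -7.43 with windows of 200 bp and -7.76 with the flank 500 bp away. In the stricter list the share in all 3 replicates turned to 1.02 points above other peaks and 7.38 above intronic peaks, the share with a neighbour to 0.709 above other peaks, and the share in the weakest ranks to -0.653 against intronic peaks. With a neighbour counted within 2000 bp that share was 1.55 above other peaks. None of these reversed differences was called. The cause of these changes was not tested, though the stricter list held only 195 members and those with a replicate left out 276 to 302, and leaving members out also moves the side on which a flank lies. The excess on 2L and 3L ranged from 19.0 to 22.8 percentage points. Depth is unknown, so weak peaks cannot be judged by their reads.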

Other observations

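Of the 5 members on chromosome 4, 2 lay in the gap between Asator and zfh2, and the others beside ey, toy and lncRNA:CR43437. The peak 1240 bp from the start of lncRNA:CR43437 ranked 263, 430 and 291 in replicates 1, 2 and 3.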
